A study of Mus musculus with 16 samples.

Results

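The BCL2 family, the caspases and the inhibitors of apoptosis were followed in mouse mast cells and in the exosomes that they release, with and without oxidative stress. The set was given as a list of 38 genes by name and function. Its rule uses no measured value, but the list was drawn up with earlier results of these data known. It holds 7 anti-apoptotic BCL2 proteins, 2 pore-forming effectors, 6 BH3-only proteins, 2 BNIP proteins, 5 apoptosome and mitochondrial factors, 6 caspases, 4 inhibitor of apoptosis proteins, 4 death receptor adaptors and 2 genes of DNA fragmentation. Of these 38 genes, 33 were measured by a probe set that carries only their symbol, out of 18193 such genes on the array. Bcl2a1a, Bcl2a1b, Bcl2a1d and Bnip3l lay only on probe sets that carry several symbols, Ripk1 matched no probe set in the annotation used here, and these 5 genes have no values below.

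RNA was measured on 16 one-colour Affymetrix mouse arrays, 4 in each group. The groups were exosomes from cells under oxidative stress (H2O2 exosomes), exosomes from normal conditions (normal exosomes), cells under oxidative stress (H2O2 cells) and cells from normal conditions (normal cells). All came from MC/9, 1 established mouse mast cell line that grows in culture, and oxidative stress was 125 µM H2O2 for 24 h, set against vehicle. The paper chose that dose because it killed a moderate share of the cells. The part of this cell death in the differences below was not tested. The sample descriptions speak of cells that had received exosomes of their condition, whereas the paper's methods and legends speak of the donor cells themselves, and the comparison of cells is reported here by the condition in the titles.

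Apoptosis of the mitochondrial kind is governed by the BCL2 proteins. The anti-apoptotic members hold back the effectors that open the outer mitochondrial membrane, and the BH3-only proteins relay death signals to both. Released cytochrome c lets APAF1 assemble the apoptosome, which activates caspase-9, while the inhibitor of apoptosis proteins restrain caspases and, as ubiquitin ligases, shape signalling downstream of death receptors. In mast cells, survival depends on growth factor signals, which are known to act in part through BIM, the product of Bcl2l11, and through MCL1.

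The signals are MAS5.0 values in arbitrary units, and the arrays of exosomes and cells differed in how far a signal had to rise to stand out. A background was set on each array as the 95th percentile of 226 probe sets for genes of unrelated tissues, and it averaged 265 ± 18.8 on H2O2 exosome arrays, 245 ± 26.0 on normal exosome arrays, 11.97 ± 0.442 on H2O2 cell arrays and 15.4 ± 1.75 on normal cell arrays (SD, n = 4 each). Of all probe sets, 6.76% and 8.85% lay above it on average on H2O2 and normal exosome arrays, against 50.05% and 48.96% on H2O2 and normal cell arrays. The 3' to 5' signal ratio of the Gapdh controls was 1.89 ± 0.373 in H2O2 exosomes, 1.64 ± 0.152 in normal exosomes, 0.851 ± 0.0220 in H2O2 cells and 0.832 ± 0.00767 in normal cells. That of the actin controls was 3.86 ± 0.776 in H2O2 exosomes, 5.35 ± 1.23 in normal exosomes, 1.38 ± 0.113 in H2O2 cells and 1.43 ± 0.0193 in normal cells. The exosome groups thus ranked in opposite order by the Gapdh and actin controls. Of 11 mast cell markers measured, 10 lay above background on all 4 H2O2 cell arrays and 9 on all 4 normal cell arrays, against 2 in H2O2 exosomes and 5 in normal exosomes. On the cell arrays the lists for B and T lymphocytes held 0 to 2 such genes, those for macrophages and neutrophils 2 to 4, for fibroblasts and endothelium 1, and for erythroid cells and platelets 4. The legends of the paper speak of different cultures, which the sample labels do not state, so p-values measure the spread between these arrays, and their number limits the precision.

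Most members stood above background in the cells and hardly any in the exosomes. Of the 33 measured, 29 lay above background on all 4 H2O2 cell arrays and 30 on all 4 normal cell arrays, against 45% and 43.9% of all probe sets. In exosomes the numbers were 0 of 33 under H2O2 and 1 of 33 under normal conditions, that 1 being Mcl1, against 2.65% and 4.25% of all probe sets, so that few probe sets of any kind stood out there. In each of the exosome groups, 26 members lay below background on all 4 arrays. In the cells, the members that missed background on some or all arrays were the effector Bok, the BH3-only genes Bmf and Hrk, and the inflammatory caspase Casp4, which lay below it on all 8 cell arrays.

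The first question was which members differed between H2O2 cells and normal cells. Casp1, which encodes the inflammatory caspase that matures interleukin-1β, the mitochondrial flavoprotein gene Aifm1 and the BH3-only gene Bad were higher in H2O2 cells. The inhibitor of apoptosis genes Birc2, Birc3 and Xiap and the BH3-only genes Bcl2l11 and Bid were lower. The remaining 25 members did not pass the test. Each call is an adjusted p under 0.05 in a limma model blocked on replicate number, adjusted over all 45037 probe sets. By this rule 9.82% of all probe sets were called, 4.31% as higher and 5.51% as lower. Among the 19222 probe sets above background on all 8 cell arrays, the share was 22% (9.81% higher and 12.2% lower), and 8 of the 29 members of that kind were called. In bulk RNA, a smaller share of cells that express a gene and less of its RNA per cell cannot be told apart.

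Casp1 gave 724, 688, 681 and 739 units on the 4 H2O2 cell arrays, against 349, 354, 387 and 330.5 on the 4 normal cell arrays. The lowest H2O2 array lay far above the highest normal array, and each group was tight. The log2 difference was 1.00 ± 0.07 (SE, 95% interval 0.85 to 1.15, adjusted p 2.86e-05 from limma), and 29 of the 19222 probe sets above background in all cells had a larger rise. The call held with any 1 replicate pair left out, where the difference ran between 0.94 and 1.06. It also held under both other scalings, at 0.69 after quantile normalization and 1.29 when arrays were scaled to their spiked controls. Of the other caspases, the apical caspases Casp8 and Casp9, Casp2 and the executioner Casp6 had differences between -0.09 and 0.16 and none was called, though Casp6 and Casp8 were called higher with spiked-control scaling.

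Sequence before the annotated start is shown for Casp1 and for Birc2 and Birc3, neighbours on the same chromosome that fell, so that genes of opposite direction can be set side by side. It comes from the RefSeq promoter table of build GRCm38.p6, which gives 250 bases before each start it lists, and the most upstream start in that table was used. Only bases outside the extent of the gene in the RefSeq gene table of the same build are printed. All 250 bases are shown for Casp1, at chr9:5298267-5298516 on the plus strand. Of the window of Birc2, 74 bases lay inside that extent and 176 are shown, at chr9:7837132-7837307 on the minus strand. Of that of Birc3, 35 lay inside and 215 are shown, at chr9:7873206-7873420 on the minus strand. The window of Xiap lay wholly inside the gene and is not shown. The bases run 5′ to 3′ on the gene's strand, and capitals mark a match to a motif searched.
Casp1: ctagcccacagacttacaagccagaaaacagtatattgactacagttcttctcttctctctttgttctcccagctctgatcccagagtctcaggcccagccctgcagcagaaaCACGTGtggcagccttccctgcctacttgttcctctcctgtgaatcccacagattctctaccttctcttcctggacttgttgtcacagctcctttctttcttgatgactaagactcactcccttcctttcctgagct
Birc2: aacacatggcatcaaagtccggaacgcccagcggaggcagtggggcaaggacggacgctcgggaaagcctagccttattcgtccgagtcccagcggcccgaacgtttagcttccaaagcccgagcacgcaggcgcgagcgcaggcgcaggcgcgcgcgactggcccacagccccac
Birc3: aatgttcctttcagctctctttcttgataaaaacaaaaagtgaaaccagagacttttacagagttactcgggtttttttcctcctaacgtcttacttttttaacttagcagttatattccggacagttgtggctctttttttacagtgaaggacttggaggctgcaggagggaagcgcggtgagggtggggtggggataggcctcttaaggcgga

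The full windows of 250 bases differed in base composition. That of Birc2 held 31 CG dinucleotides and 68.4% G and C, and 95.1% of all 27025 promoter windows held fewer such dinucleotides. That of Birc3 held 6, the median of all windows, while those of Casp1 and Xiap held 1 each. Motifs were searched in the full windows on both strands, 8 in all, and 30 of the 33 measured members had a window. The E-box CACGTG, found in 6.04% of all windows, occurred in that of Casp1 alone among the members, 137 to 132 bases before the start. The cAMP response element TGACGTCA, found in 1.6% of all windows, occurred in that of Birc2 alone among the members, 35 to 28 bases before the start used, in the part inside the gene's extent. Both of these motifs were added after the sequences had been seen. The NF-κB consensus (3.74% of windows), the p53 half-site consensus (7.16%), the STAT motif TTCNNNGAA (7.14%), the antioxidant response motif TGACNNNGC (10.1%), the AP-1 motif TGANTCA (6.85%) and the FOXO motif GTAAACA (3.06%) had no match in the windows of these 4 genes. Among the other members, the NF-κB consensus matched in the windows of Aifm1 and Casp4, and the FOXO motif in those of Bcl2l11 and Casp4. The antioxidant response motif matched in that of Hrk. A match describes letters in a window and says nothing of binding.

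Of the 4 inhibitor of apoptosis genes in the set, 3 were lower in H2O2 cells, a call that was lost for all 3 when arrays were scaled to their spiked controls. Birc2, which encodes cIAP1, gave 211, 203, 227 and 176 units in H2O2 cells, against 280.5, 275, 278 and 264 in normal cells. Birc3, which encodes cIAP2, gave 303, 363, 376 and 293 units in H2O2 cells, against 437, 399, 476 and 411 in normal cells. Xiap, whose product binds caspases directly, gave 566, 554, 528 and 573 units in H2O2 cells, against 727, 707, 609 and 703 in normal cells. For each of the 3 genes every H2O2 array lay below every normal array. The groups did not overlap, in either direction, for 30.8% of all probe sets above background on all 8 cell arrays. Of those 19222 probe sets, 12.2% were called lower. A larger fall than that of Birc2, Birc3 and Xiap was seen in 12.7%, 16.3% and 21.7% of them. The log2 differences were -0.43 ± 0.07 for Birc2 (SE, adjusted p 0.00386 from limma), -0.37 ± 0.08 for Birc3 (adjusted p 0.00896) and -0.30 ± 0.06 for Xiap (adjusted p 0.00633).

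Birc6, which encodes the large ubiquitin-conjugating member, averaged 508 ± 36.1 units in H2O2 cells and 510 ± 47.5 in normal cells (SD, n = 4 each), with a log2 difference of -0.0021 (95% interval -0.17 to 0.17). All 5 probe sets of Birc6 above background in cells were lower, down to -0.47, and none was called with the deposited scaling. With spiked-control scaling the differences were -0.13 for Birc2, -0.08 for Birc3, -0.01 for Xiap and 0.29 for Birc6, of which only that of Birc6 was called (adjusted p 0.0338 from limma). That scaling moved every probe set by the same amount, the median of all from -0.15 with the deposited scaling to 0.15. A gene's place against the median could therefore not change between these scalings. With quantile normalization the median was 0.00, and Birc2, Birc3, Xiap and Birc6 were at -0.29, -0.28, -0.26 and -0.03. Birc3 also lost its call without the pair of replicate 1 (adjusted p 0.0515) or of replicate 4 (adjusted p 0.0575). Birc5 and Naip2, listed with the other apoptosis genes, are of the same family and went the other way. They are named after their values had been seen. Birc5, which encodes survivin, gave 1552, 1568, 1646 and 1637 units in H2O2 cells, against 1228, 1113, 1158 and 1104 in normal cells, without overlap (log2 difference 0.48 ± 0.06, SE, adjusted p 0.000481 from limma), and it was called under quantile (0.33) and spiked-control scaling (0.77) too. Naip2 averaged more in H2O2 cells as well, again without overlap, but was not called (0.17, adjusted p 0.135). Naip5, of the same list and family, averaged less in H2O2 cells (291 ± 14.2 units) than in normal cells (338 ± 39.8, SD, n = 4 each), with overlap. Another probe set of Xiap was lower as well (log2 difference -0.44, adjusted p 0.0414), and a further one above background was not called at 0.22 (adjusted p 0.667).

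**Figure D1:**
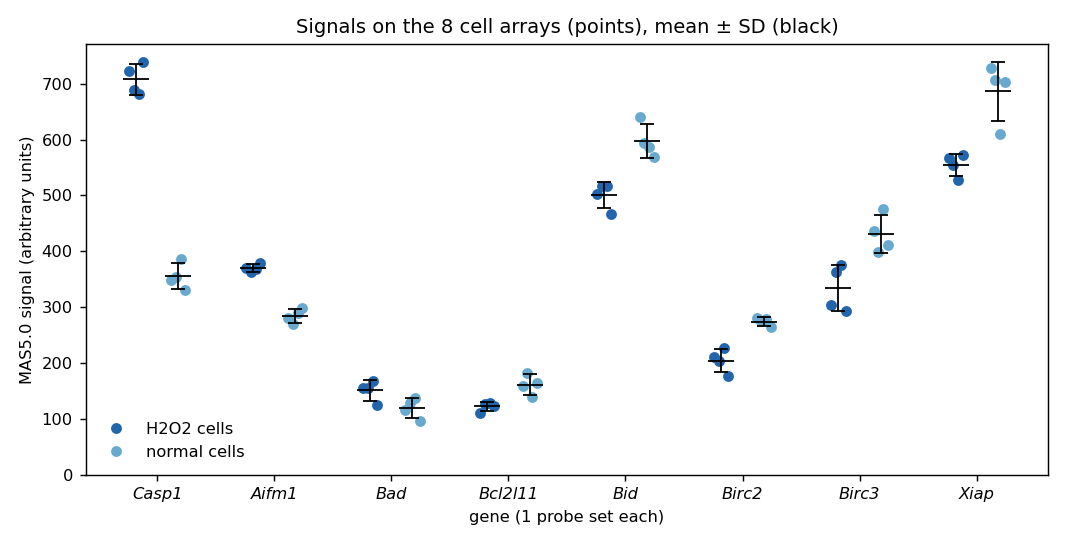
Signals in arbitrary MAS5.0 units on the linear vertical axis for the 8 members called in cells, with H2O2 cells left of normal cells for each gene, 1 point per array and the mean ± SD in black (n = 4 each). The groups do not overlap for any of these genes except Bad, whose lowest H2O2 array (125 units) lies below the highest normal array (137 units).

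Among the BH3-only genes the calls ran both ways. Bcl2l11, which encodes BIM, gave 111, 127, 129 and 122.8 units in H2O2 cells, against 160, 183, 138 and 165 in normal cells. Bid, the substrate through which caspase-8 reaches mitochondria, gave 503, 517, 517 and 468 units in H2O2 cells, against 641, 594, 587 and 569 in normal cells. Bad, whose product binds and neutralises BCL-XL, gave 156, 156, 167 and 125 units in H2O2 cells, against 115, 129, 137 and 97.1 in normal cells. For Bcl2l11 and Bid all H2O2 arrays were lower than all normal arrays, while for Bad the groups overlapped and every pair of equal number was higher under H2O2.

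The log2 differences were -0.39 ± 0.10 for Bcl2l11 (SE, adjusted p 0.0244 from limma), -0.25 ± 0.06 for Bid (adjusted p 0.0187) and 0.34 ± 0.08 for Bad (adjusted p 0.0259). Of the 19222 probe sets above background on all 8 cell arrays, 14.9% and 26.5% had a larger fall than Bcl2l11 and Bid. A larger rise than that of Bad was seen in 7.76%. The calls of these 3 genes were the least stable of the 8. Each was lost without the pair of replicate 1, of replicate 2 or of replicate 4, with adjusted p of 0.115, 0.125 and 0.0930 for Bcl2l11, 0.0857, 0.0568 and 0.0906 for Bid and 0.118, 0.0749 and 0.0886 for Bad in that order. Without the replicate block, Bad was not called (adjusted p 0.0832). Quantile normalization left Bcl2l11 at -0.22 without a call (adjusted p 0.0627). With spiked-control scaling Bcl2l11 was at -0.09 (adjusted p 0.687) and Bid turned to 0.043 (adjusted p 0.800), whereas Bad was called at 0.64.

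Other probe sets of these genes bore on the direction. All 3 probe sets of Bid above background in cells were lower, 2 of them called, the second at -0.43 (adjusted p 0.0102 from limma). All 3 of Bcl2l11 above background were lower and 1 was called, and both of Bad were higher and 1 was called. The called probe set of Bad was not its brightest in cells, which was at 0.17 without a call. Bmf, a BH3-only gene close to background, averaged 17.3 ± 6.72 units in H2O2 cells and 30.2 ± 5.06 in normal cells (SD, n = 4 each) and did not pass the test (log2 difference -0.87, adjusted p 0.0528). Bik had a difference of -0.01 and was not called, and Hrk lay near background.

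Of the 5 mitochondrial and apoptosome factors, 1 was called, as higher. Aifm1, whose product serves oxidative phosphorylation in mitochondria and can move to the nucleus in dying cells, gave 370, 363, 368 and 379.5 units in H2O2 cells, against 282, 269, 289 and 298 in normal cells. The groups were far apart relative to their spread, and the log2 difference was 0.38 ± 0.06 (SE, adjusted p 0.00302 from limma). The call held with any 1 pair left out (0.36 to 0.39) and under quantile (0.25) and spiked-control scaling (0.68). Diablo, whose product Smac relieves caspases from the inhibitor proteins, averaged 207 ± 16.1 units in H2O2 cells and 171 ± 2.14 in normal cells (SD, n = 4 each), and Apaf1 averaged 478 ± 15.7 units in H2O2 cells and 421 ± 32.7 in normal cells. Neither was called (adjusted p 0.0545 for Diablo and 0.108 for Apaf1), though the arrays of the groups did not overlap for either. Diablo was called after quantile normalization (0.20, adjusted p 0.0417), and both with spiked controls. The other probe set of Diablo went the other way without a call (log2 difference -0.66). It averaged 20.8 ± 6.04 units in H2O2 cells and 32.2 ± 5.33 in normal cells. Htra2 and Endog were not called.

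No anti-apoptotic gene or effector was called in cells with the deposited scaling, though Mcl1, Bcl2 and Bak1 were called under another. Mcl1 gave 1547, 1358, 1319 and 1118 units in H2O2 cells, against 1650, 1572, 1326 and 1560 in normal cells. Each H2O2 array was lower than the normal array of equal number, but the groups overlapped, and the log2 difference of -0.20 ± 0.07 had an adjusted p of 0.123 from limma. Quantile normalization called it at -0.22 (adjusted p 0.0356), spiked-control scaling gave 0.10 without a call, and the other 5 probe sets of Mcl1 ran between -0.10 and 0.06 with none called. Bcl2, Bcl2l1 (BCL-XL) and Bcl2l2 (BCL-W) had differences of 0.08, -0.14 and -0.03, and the effector Bak1 was at 0.32 (adjusted p 0.0562 from limma). With spiked-control scaling Bcl2 was called at 0.38 (adjusted p 0.00738) and Bak1 at 0.62 (adjusted p 0.000994).

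Among the death receptor adaptors and DNA fragmentation genes, Cflar (log2 difference -0.19), Fadd (-0.09), Tradd (0.13), Dffa (-0.03) and Dffb (-0.16) were not called. Bnip2 was not called on its chosen probe set (0.12, adjusted p 0.344 from limma). Its probe set brightest in cells, which was not the chosen one, was called at 0.33 (adjusted p 0.0127). Of its 4 probe sets above background in cells, 3 were higher and 1 was lower, at -0.46 without a call. With spiked-control scaling the members called higher were Casp1, Aifm1, Bad, Bak1, Bcl2, Birc6, Bnip2, Apaf1, Diablo, Htra2, Casp6, Casp8 and Tradd. That scaling moved every probe set in cells up by the same amount, the median from -0.15 to 0.15. The share of all probe sets called with it is not given here. Over all 33 members the median log2 difference in cells was -0.01, against -0.15 over all probe sets. Over the 29 above background on all 8 cell arrays it was -0.03, against -0.07 over all probe sets of that kind. The arrays of the groups did not overlap for 10 of 33 members, 5 higher and 5 lower, against 16.1% of all probe sets and 30.8% of those above background.

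**Figure D2:**
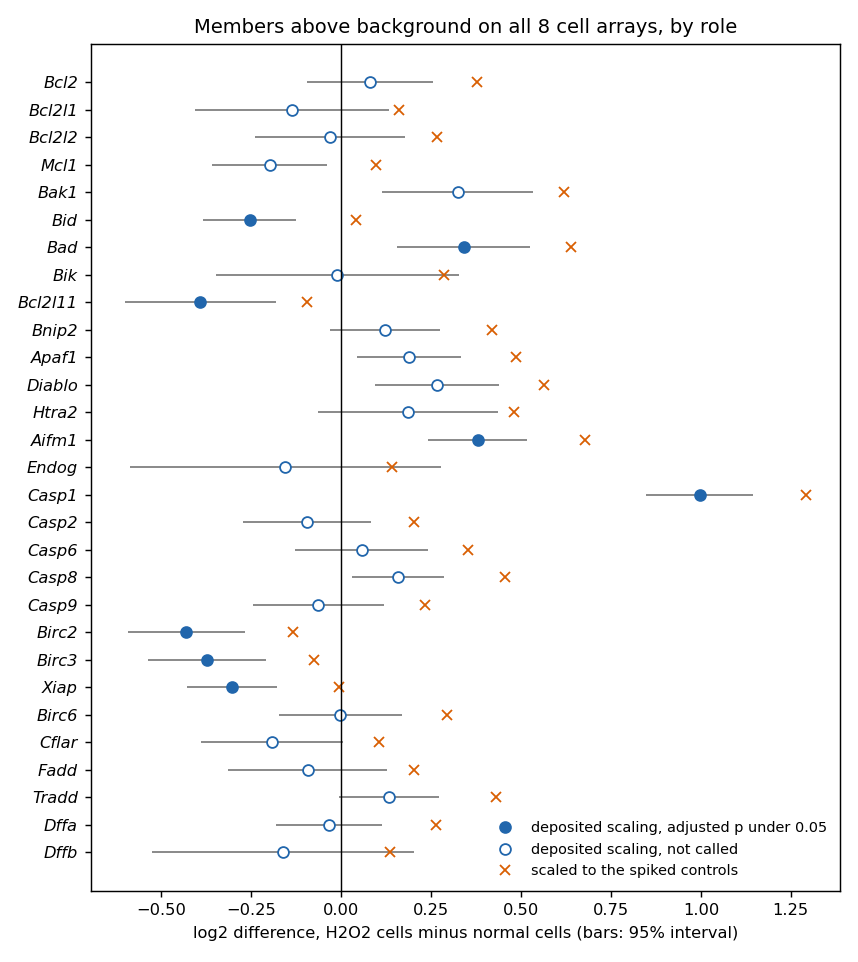
Log2 differences, H2O2 cells minus normal cells, on the horizontal axis for the 29 members above background on all 8 cell arrays, ordered by role from the BCL2 proteins at the top to the DNA fragmentation genes at the bottom. Filled circles passed the test with the deposited scaling, open circles did not, and bars are 95% intervals (n = 4 arrays per group). Crosses give the same difference with arrays scaled to their spiked controls, which moves every probe set to the right by the same amount. With it 13 members are called higher and 0 lower, and the share of all probe sets called in this way is not given here.

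The second question was whether the members differed between H2O2 exosomes and normal exosomes. None of the 33 was called by limma, against 1.73% of all probe sets, 0.0311% as higher (14 probe sets) and 1.7% as lower (764 probe sets). At an unadjusted p under 0.05 there were 4 members, namely Casp1, Casp4, Diablo and Cflar, against 9.75% of all probe sets. The methods' paired t-test without adjustment gave 1 higher and 2 lower on log2 signals, against 7.6% of all probe sets in either direction. The arrays of the groups did not overlap for 2 members, Bmf and Casp1, both higher in H2O2 exosomes, against 6.57% of all probe sets. The standard error of a member's log2 difference had a median of 0.58 in exosomes, against 0.08 in cells, so that differences as small as most of those in cells were not detectable here.

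Mcl1 gave 408, 320, 231 and 396 units in H2O2 exosomes, against 392, 397, 402 and 403 in normal exosomes. The normal arrays were nearly equal, while the third H2O2 array fell below its background, and the groups overlapped. The log2 difference was -0.27 ± 0.27 (SE, 95% interval -0.83 to 0.29, adjusted p 0.806 from limma). None of the other 5 probe sets of Mcl1 was above background on all 4 arrays of an exosome group. Each averaged less in H2O2 exosomes (68.9 to 157 units) than in normal exosomes (139 to 273 units). For the 1 that averaged 68.9 units the groups did not overlap, with every signal below background.

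Bcl2l11 averaged 321 ± 56.6 units in H2O2 exosomes, above background on 3 of 4 arrays, and 269 ± 30.0 in normal exosomes, above it on 2 (SD, n = 4 each). Diablo averaged 168 ± 40.4 units in H2O2 exosomes, above background on 0 arrays, and 301 ± 91.5 in normal exosomes, above it on 3. Neither was called. The difference for Diablo was -0.83 (95% interval -1.56 to -0.09, adjusted p 0.436 from limma).

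Casp1, the member with the largest rise in cells, gave 79.5, 82.6, 73.1 and 128 units in H2O2 exosomes, against 54.0, 17.5, 9.66 and 17.7 in normal exosomes. All of these lay below the background of their arrays, so no fold is given, although every H2O2 array was higher than every normal array and the unadjusted p was 0.0294 (adjusted p 0.432 from limma). The difference between the H2O2 effect in exosomes and that in cells was tested directly, and none of the 33 members was called, against 1.56% of all probe sets, 0.0933% as higher and 1.47% as lower. At an unadjusted p under 0.05 there were 4 members in that test, against 13.2% of all probe sets.

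**Figure D3:**
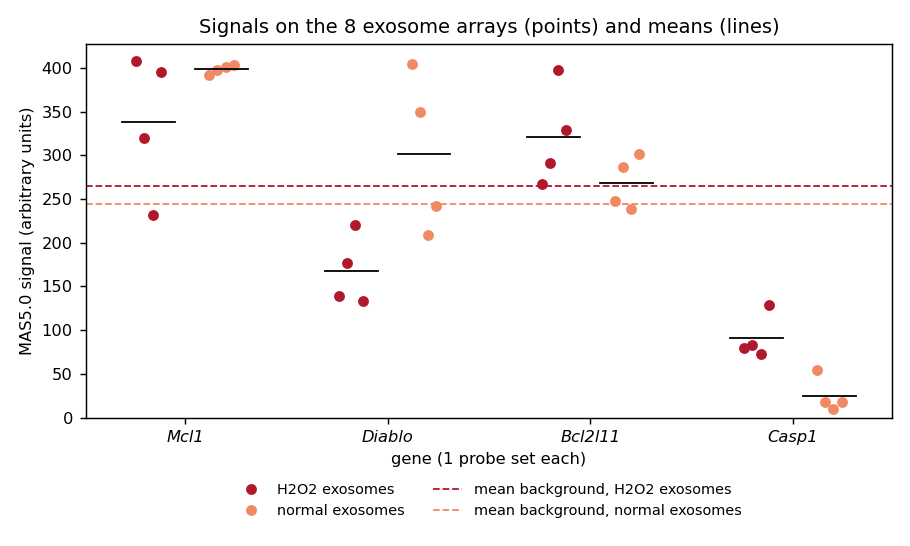
Signals in arbitrary MAS5.0 units on the linear vertical axis for Mcl1, Diablo, Bcl2l11 and Casp1 on the 8 exosome arrays, with H2O2 exosomes left of normal exosomes, 1 point per array and the mean as a line (n = 4 each). Dashed lines give the mean background of each group, 265 and 245 units, above which Mcl1 stands on all 4 normal arrays and below which Casp1 stays on all 8 arrays.

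The third question was how exosomes differed from the cells of the same condition. Under H2O2, 8 of the 33 members were called higher and 18 lower in exosomes than in cells, against 60.8% and 19.4% of all probe sets (80.2% in either direction). Under normal conditions, 7 were called higher and 15 lower, against 57.7% and 19% (76.6% in either direction). The median log2 difference of the members was -1.16 under H2O2 and -1.02 under normal conditions, against 2.67 and 2.23 over all probe sets. Over the 29 members above background on all 8 cell arrays it was -1.75 and -1.29. Over all probe sets of that kind it was -0.84 and -0.76, lower in exosomes too. The background was 22.1 times as high on H2O2 exosome arrays as on H2O2 cell arrays and 15.8 times as high on normal ones. The scaling set the split between higher and lower. With spiked controls, 1 member was higher and 29 lower under H2O2, and 0 higher and 30 lower under normal conditions, while quantile normalization gave 4 higher and 19 lower, and 3 higher and 17 lower. The median of all probe sets under H2O2 was 0.20 with quantile normalization and -1.71 with spiked controls, and under normal conditions 0.16 and -1.88.

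None of the members called higher was above background on all 4 exosome arrays, and 4 of the 8 under H2O2 and 4 of the 7 under normal conditions were above it on none. They included Bok, Bmf, Hrk and Casp4 in both conditions, which lay on or below background in cells or little above it. For Bcl2l11 the difference was 1.37 under H2O2 and 0.74 under normal conditions, and it turned to -3.003 and -3.37 with spiked controls.

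A signal under the exosome background gives only a bound. In H2O2 cells, 11 members were brighter than the highest background of an H2O2 exosome array (285 units), all 11 were called lower in exosomes, and 10 lay below background on all 4 exosome arrays. In normal cells, 13 members were brighter than the highest background of a normal exosome array (269.8 units), 12 of them were called lower in exosomes, and 10 lay below background on all 4. Bounds set the mean log2 signal in cells against the higher, on each exosome array, of the lowest signal above background and the gene's own signal. They hold for the deposited scaling only and were not computed under the others.

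Under H2O2, Casp1 was at least 2.67-fold lower in exosomes than in cells, Casp8 at least 2.41-fold, Xiap at least 2.10-fold, Birc6 at least 1.92-fold, Bid at least 1.89-fold and Apaf1 at least 1.81-fold. Under normal conditions, Xiap was at least 2.81-fold lower, Bid at least 2.45-fold, Casp8 at least 2.34-fold, Birc6 at least 2.08-fold, Birc3 at least 1.76-fold, Apaf1 at least 1.72-fold and Casp1 at least 1.45-fold. The 4 inhibitor genes were called lower in both conditions (adjusted p at most 0.000694 from limma), also under quantile and spiked-control scaling, but with signals floored at background the difference for Birc2 was 0.38 under H2O2 and -0.17 without a call under normal conditions. The spread of the 3' to 5' ratios given above moved with the same contrast, and its part in these differences was not tested.

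Mcl1 was the only member above background on all arrays of a group of exosomes and of the matching cells, and under H2O2 it missed it on 1 exosome array. It averaged 339 ± 81.4 units in H2O2 exosomes and 1336 ± 176 in H2O2 cells (SD, n = 4 each), a log2 difference of -2.005 ± 0.25 (SE, adjusted p 0.000120 from limma), which was -0.39 without a call after quantile normalization (adjusted p 0.363). It averaged 399 ± 4.69 units in normal exosomes and 1527 ± 140 in normal cells, a difference of -1.93 ± 0.18 (adjusted p 2.37e-05), which was -0.49 after quantile normalization (adjusted p 0.0443). With spiked controls the differences were -6.38 under H2O2 and -6.04 under normal conditions. The other 5 probe sets of Mcl1 averaged 68.9 to 157 units in H2O2 exosomes, always below background, and 334 to 941 in H2O2 cells. They averaged 139 to 273 units in normal exosomes, mostly below background, and 318 to 996 in normal cells.

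**Figure D4:**
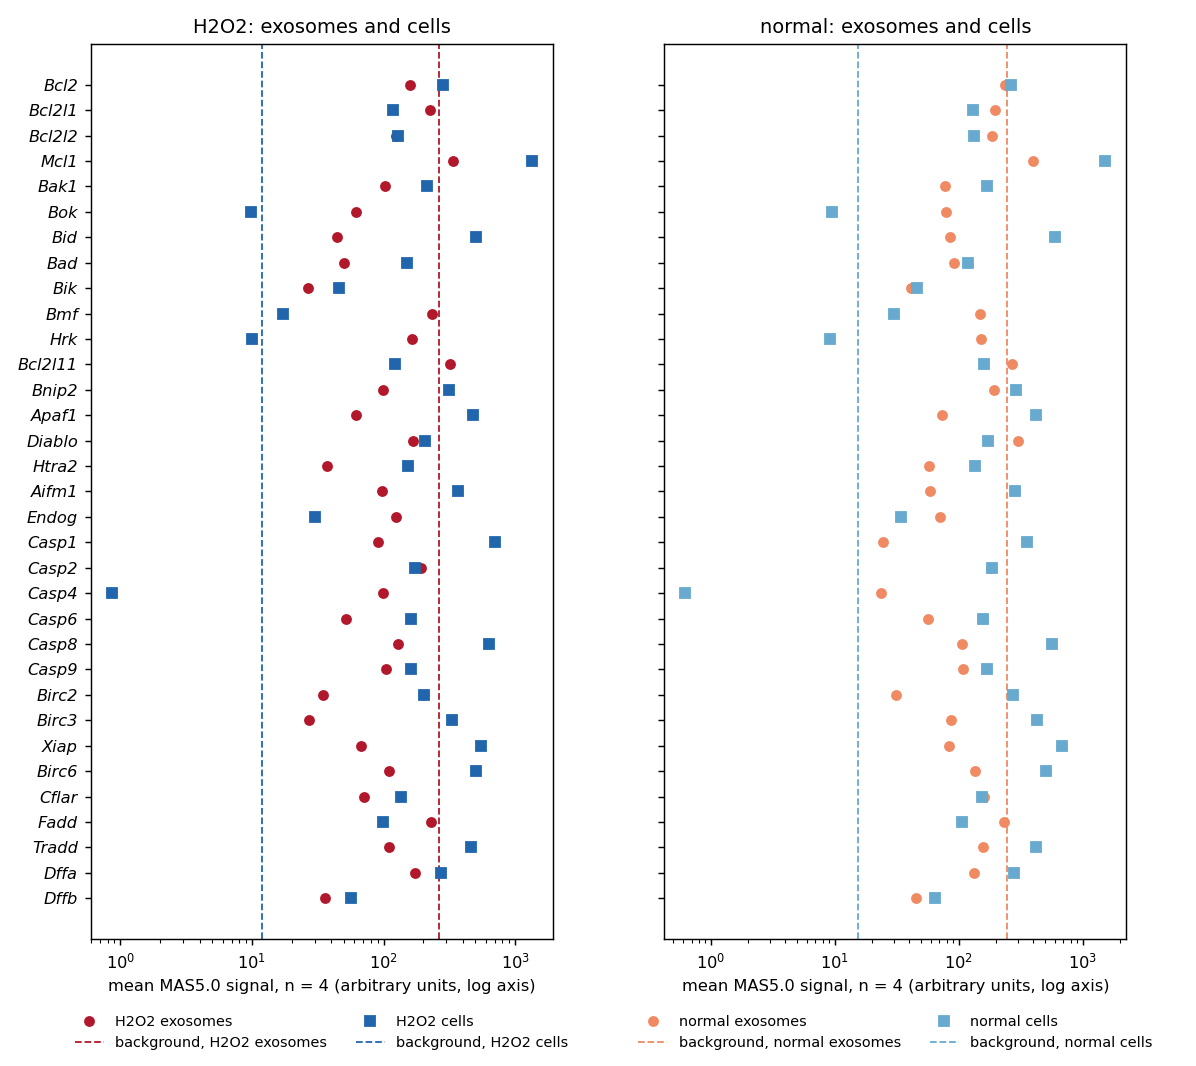
Mean MAS5.0 signals in arbitrary units on a logarithmic horizontal axis for all 33 measured members (n = 4 arrays per mean), with circles for exosomes and squares for cells, H2O2 on the left and normal conditions on the right. Dashed lines give the mean background of each group, which lies near 265 and 245 units for H2O2 and normal exosomes and near 11.97 and 15.4 units for H2O2 and normal cells. Most circles lie left of the exosome background, while most squares lie right of the cell background.

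Other genes of cell death were listed beside this set, among them partners and regulators of its members. Of 62 such genes, 57 were measured, and 43 lay above background on all 8 cell arrays. In H2O2 cells 11 were higher and 2 lower, against 4.31% and 5.51% of all probe sets and 9.81% and 12.2% of those above background, with a median log2 difference of 0.05, against -0.15 over all probe sets. Cycs, which encodes the cytochrome c that triggers the apoptosome, averaged 3301 ± 225 units in H2O2 cells and 2467 ± 94.0 in normal cells (SD, n = 4 each, log2 difference 0.42, adjusted p 0.000662 from limma). The mitochondrial channel genes Vdac1 (0.21) and Vdac3 (0.32), the survival genes Api5 (0.25) and Bag1 (0.37) and the necroptosis kinase gene Ripk3 (0.60) were also higher. Bnip3, a mitochondrial member induced by hypoxia, was lower at -0.32, as was Pdcd4 at -0.42, which is named because the falls were few, after its values had been seen. With spiked controls Bnip3 (-0.03) and Pdcd4 (-0.12) lost their calls. Vdac1 lost its call with quantile normalization (adjusted p 0.139) and without the pair of replicate 2, 3 or 4 (adjusted p 0.154, 0.0603 and 0.112), Api5 without that of replicate 4 (0.0572), and Bnip3 without that of replicate 1, 2 or 4 (0.0841, 0.0532 and 0.121).

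In exosomes 2 of these 57 genes were called, both as lower in H2O2 exosomes, against 1.7% of all probe sets. Ripk3 gave 338, 465, 559 and 290 units in H2O2 exosomes, against 1196, 1103, 695 and 953 in normal exosomes. Dap3, which encodes a protein of the mitochondrial ribosome, gave 224, 214, 255 and 313 units in H2O2 exosomes, against 737, 676, 573 and 459 in normal exosomes. For both genes every H2O2 array lay below every normal array, and all 8 arrays were above background for Ripk3. Dap3 was above it on all 4 normal arrays but on 1 of the 4 H2O2 arrays, so its difference is set against signals mostly under background. The log2 difference was -1.28 ± 0.26 for Ripk3 (SE, adjusted p 0.0131 from limma) and -1.28 ± 0.27 for Dap3 (adjusted p 0.0196).

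These 2 calls depended on the setting. Quantile normalization left Ripk3 at -0.93 (adjusted p 0.234) and Dap3 at -1.50 (adjusted p 0.101), and spiked controls left them at -1.25 and -1.25 (adjusted p 0.0616 and 0.0775). Ripk3 lost its call without the pair of replicate 1, 2 or 4 (adjusted p 0.114, 0.0516 and 0.0649) and Dap3 without that of replicate 1 or 2 (0.133 and 0.117). In the direct test of the exosome effect minus the cell effect, Ripk3 (-1.88, adjusted p 0.0183 from limma), Bag1 (-1.59, adjusted p 0.0164) and Dap3 (-1.40, adjusted p 0.0322) were called, 3 of 57 as lower, against 1.47% of all probe sets. In cells, Ripk3 averaged 635 ± 14.02 units under H2O2 and 417 ± 14.8 under normal conditions (SD, n = 4 each), higher in all 4 pairs, and its call there held with any 1 pair left out.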

How the data were processed

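The authors measured RNA of exosomes and MC/9 cells on Affymetrix arrays and deposited MAS5.0 signal intensities (GCOS 1.2 per the labels) on a linear scale. Each array had been scaled to a mean of 100 with 2% of probe sets trimmed at each end. The paper and the labels name different versions of the array, and the deposited table holds 45101 probe sets, of which 64 controls were left out and 45037 tested. Of these, 34945 carried 1 gene symbol, 932 several and 9160 none in GEO's platform annotation.

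Each comparison was fitted to the log2 signals of its own 8 arrays by limma 3.58.1 (lmFit, eBayes with trend, in R 4.3.3). Replicate number entered as a block, since a paired test is named in the methods, with Benjamini-Hochberg adjustment at 0.05. The difference of effects used the within-pair differences of all 16 arrays. Each gene took the probe set of highest mean log2 signal. Values on every array were given for members called in an H2O2 comparison or above background on all 4 arrays of an exosome group, and at most 8 of the other apoptosis genes called were named, by highest mean log2 signal. The script was tested on simulated data. The members and lists were chosen with earlier results of these data known. Alternatives were quantile normalization, scaling to 9 spiked-control probe sets, no block, log2(signal + 100), signals floored at background, probe sets above the median, the methods' paired t-test, the probe set brightest in cells, and leaving out each replicate pair. Detection calls were not used here.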

Additional observations from a re-analysis of the deposited data

Results flagged for a closer look

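In 60 combinations of member and group with all 4 arrays above background, a gap test for 1 array apart from the other 3 picked out 4, and chance alone picks out about 1 in 20. Apaf1 in H2O2 cells read 502 on replicate 2, against 471, 472 and 469 on the other arrays. Diablo in H2O2 cells read 231 on replicate 4, against 197, 200 and 200. Dffa in normal cells read 264 on replicate 3, against 283, 280 and 282. Dffb in normal cells read 89.9 on replicate 4, against 58.6, 54.8 and 55.0.

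The H2O2 effect differed between exosomes and cells for 3 of the other apoptosis genes named, with log2 differences of effects of -1.88 for Ripk3, -1.59 for Bag1 and -1.40 for Dap3 (adjusted p 0.0183, 0.0164 and 0.0322 from limma). Each lost its call without some replicate pairs. Ripk3 did so without replicate 1, 2 or 4 (adjusted p 0.141, 0.154 and 0.122), Dap3 without replicate 1, 2 or 3 (0.181, 0.219 and 0.123) and Bag1 without any 1 of the 4 (0.0684 to 0.103). Bag1 lay above background on 0 H2O2 exosome arrays and on 3 normal exosome arrays.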

How the results depend on the processing

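The counts of members called changed with the processing as follows. The shares of all probe sets called under these alternatives are not given with them, so the counts describe the processing and not the members. In H2O2 against normal cells, 3 members were higher and 5 lower, and the numbers became 13 and 0 with spiked-control scaling, 5 higher among probe sets above the median, 6 higher with signals floored at background, 5 higher by the methods' paired t-test unadjusted on either scale, and 0 and 0 by that test after Benjamini-Hochberg. Leaving out 1 pair gave 2 to 3 higher and 2 to 5 lower. In H2O2 against normal exosomes, the methods' paired t-test unadjusted gave 1 higher and 2 lower on log2 signals and 2 higher and 1 lower on linear ones, and every other alternative gave 0, each pair left out included. In H2O2 exosomes against H2O2 cells, 8 higher and 18 lower became 4 higher with quantile normalization, 1 and 29 with spiked controls, 18 and 11 with flooring, 5 and 11 by the paired t-test after Benjamini-Hochberg on log2 signals, and 4 higher on linear signals with and without adjustment, and ran between 6 and 7 and between 16 and 17 with 1 pair left out. In normal exosomes against normal cells, 7 higher and 15 lower became 3 higher with quantile normalization, 0 and 30 with spiked controls, 16 and 9 with flooring, and 4 and 3 higher by the paired t-test after Benjamini-Hochberg on log2 and linear signals, and ran between 5 and 7 and between 13 and 17 with 1 pair left out. The difference of effects called 0, which flooring, defined on fewer probe sets, made 9 higher and 4 lower. In each exosome group, 26 members lay below background on all 4 arrays, where flooring set their signals to the background. For such members the exosome part of this test holds backgrounds alone, so these calls cannot show an effect in exosomes.

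Directions turned in 5 cases. With spiked controls Bid in cells was at 0.043, and Bcl2l11 in exosomes against cells at -3.003 under H2O2 and -3.37 under normal conditions. With flooring Bad and Birc2 in H2O2 exosomes against H2O2 cells were at 0.82 and 0.38. Both lay below background on all 4 H2O2 exosome arrays, where flooring set their signals to the background, 265 units on average. In H2O2 cells they averaged 151 and 204 units. Scaling to the spiked controls moved every probe set of a comparison by the same amount. With log2(signal + 100) or among probe sets above the median, all 39 results for single genes kept their direction and call.

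Without the replicate block, 38 of those 39 results kept their call, the exception being Bad in cells (adjusted p 0.0832 from limma), and 4 members were higher and 5 lower in cells. Arrays of equal number did not deviate together, with correlations of their deviations between -0.04 and 0.05, so the pairing rests on the methods alone. Signals near the exosome background limit what can be seen. With the background at the 90th percentile, 4 members in each exosome group lay above it on all 4 arrays, and at the 99th 0.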
